A study of Mus musculus with 9 samples.

Results

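The genes described here are 9 transcription factor genes of the immediate early response: the Fos family (Fos, Fosb, Fosl1 and Fosl2), the Jun family (Jun, Junb and Jund), Atf3 and Egr1. They were chosen by symbol, with earlier results of these data known, and all 9 were found among the 19240 genes of the expression table. All 9 also passed the filter on low levels, set at an average of 0.5 FPKM, which left 12012 genes to be tested. FPKM is the number of fragments per kilobase of a transcript, relative to all fragments mapped in that library, so levels can be compared between genes per length.

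Fos and Jun proteins are basic leucine zipper factors that dimerize to form AP-1, which binds a short palindromic DNA site. Jun proteins can pair with each other, whereas Fos proteins need a Jun partner. In fibroblasts these genes are induced within minutes by serum, growth factors and stress through mitogen-activated protein kinases (MAPK), and AP-1 is known there for driving matrix-degrading proteases and cell cycle genes. Fosl1 (the protein Fra-1) and Fosl2 (Fra-2) are the longer-lived members, Junb often opposes Jun, Atf3 is a stress-induced zipper factor, and Egr1 is a zinc finger factor that binds a GC-rich site of its own.

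RNA-seq was performed on 9 mouse libraries in 3 groups of 3, to ask how single residues of S100A8, a calcium-binding protein made in quantity by neutrophils, bear on the transcriptome. OEA8_Ctrl is labelled an overexpression control, and the study describes these reference cells as overexpressing unmutated S100A8. OEA8_67 and OEA8_69 are labelled as overexpressing S100A8 with a point mutation at residue 67 or residue 69. The age and strain of the animals from which these fibroblasts came and the promoter of the construct are not given in the sources used here, and the mutants differ from the control in the construct alone as far as the labels say. For its fibroblasts the study describes lentiviral infection and puromycin selection. Whether replicate libraries represent separate cultures is not given, so p-values measure only the spread between libraries, which may be technical.

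The cell type is given as hematopoietic stem cells by the labels and as mouse embryonic fibroblasts by the study. All 15 fibroblast markers were at 1 FPKM or more, with a median level of 215 FPKM. Of these, 6 were lower in OEA8_67 and 3 in OEA8_69 than in OEA8_Ctrl, beside 4.66% and 5.24% of all tested genes. Against OEA8_67, 4 were higher in OEA8_69, beside 1.89% of all tested genes. Dcn, a matrix proteoglycan, was at means of 264.6 FPKM in OEA8_Ctrl, 174.4 in OEA8_67 and 206.0 in OEA8_69. The 15 summed to 7295 to 7604, 6727 to 6965 and 7131 to 7288 FPKM in the same order. Of 19 markers of blood stem and progenitor cells, 9 were at 1 FPKM or more, and the defining genes Ptprc and Kit were at or below 0.03 FPKM in every library. Ly6a (means of 209.7, 119.3 and 136.2 FPKM in OEA8_Ctrl, OEA8_67 and OEA8_69), Cd34 (68.2, 34.9 and 30.6 FPKM), Gata2 (41.7, 48.2 and 46.9 FPKM), Procr (8.91, 6.62 and 6.50 FPKM) and Hlf (7.04, 8.36 and 8.67 FPKM) were expressed. The 19 summed to 339.5 to 359.1 FPKM in OEA8_Ctrl, 223.4 to 235.8 in OEA8_67 and 236.0 to 245.1 in OEA8_69. Of the 9 that could be tested 1 was higher and 3 lower in OEA8_67, and 3 higher and 4 lower in OEA8_69. Of all tested genes 3.21% were higher and 4.66% lower in OEA8_67, and 4.55% higher and 5.24% lower in OEA8_69. S100a8 itself did not pass the test between groups, at means of 4.69 FPKM in OEA8_Ctrl, 5.58 in OEA8_67 and 5.14 in OEA8_69 (adjusted p of 0.449 and 0.745 against OEA8_Ctrl). FPKM summed to between 469909 and 501342 per library, and libraries of a group correlated across genes with r between 0.995 and 0.998. The read depth behind the values is unknown. Of 13 endothelial markers measured, 5 passed the filter, and all 5 were lower in both mutants, beside 4.66% and 5.24% of all tested genes. The 13 summed to 64.4 to 65.3 FPKM in OEA8_Ctrl, 9.67 to 11.7 in OEA8_67 and 6.50 to 8.02 in OEA8_69, with Cdh5 falling from 11.3 to 0.797 and 0.400 FPKM. The 23 interferon-stimulated genes measured summed to 983.1, 1218 and 1012 FPKM in OEA8_Ctrl, 982.1, 589.8 and 507.6 in OEA8_67 and 396.4, 674.9 and 860.0 in OEA8_69. Of the 22 tested, 2 were lower in OEA8_67 and 3 in OEA8_69, beside 4.66% and 5.24% of all tested genes. The median log2 fold changes of the 22 were -0.67 and -0.74. As a mean of log2(FPKM + 1), the 23 genes stood at 4.57, 4.92 and 4.60 in the OEA8_Ctrl libraries. OEA8_67 replicate 1 (4.65) and OEA8_69 replicate 3 (4.55) were near the control, and the other mutant libraries lay between 3.455 and 4.09. The endothelial, fibroblast, blood stem cell and interferon genes moved with the differences from OEA8_Ctrl given below, and their part in those differences was not tested. In such bulk samples fewer cells of a type and less RNA per cell cannot be told apart.

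Promoter sequence was available from RefSeq (GRCm38.p6, the assembly of the mm10 build that the submitters' notes name) for 7 of the 9 genes, from 250 bases before to 50 bases after the start site. Fosl1 and Egr1 had no entry. The 150 bases before the start site are shown, 5′ to 3′ on the strand of the gene, for Fos, Junb and Jun, the 3 of these 7 genes that changed between groups. Capitals mark TGACG, the core of the cyclic AMP response element, TGACATCA, a variant of it through which Jun and Atf2 dimers are known to act on the Jun gene, CCAAT, and TATAAA, the TATA box. The stretches are chr12:85473740-85473889 on the plus strand for Fos, chr8:84978749-84978898 on the minus strand for Junb and chr4:95052223-95052372 on the minus strand for Jun.
Fos: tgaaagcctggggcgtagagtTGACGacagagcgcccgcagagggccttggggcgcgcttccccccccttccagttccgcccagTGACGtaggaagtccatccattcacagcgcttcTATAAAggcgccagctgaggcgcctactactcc
Junb: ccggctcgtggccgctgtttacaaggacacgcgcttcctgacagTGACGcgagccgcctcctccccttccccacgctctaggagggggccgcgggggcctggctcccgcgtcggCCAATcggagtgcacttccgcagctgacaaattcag
Jun: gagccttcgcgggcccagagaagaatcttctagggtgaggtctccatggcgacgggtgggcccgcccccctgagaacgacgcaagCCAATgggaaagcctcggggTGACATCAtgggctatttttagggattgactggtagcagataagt

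Motifs were searched as exact letters on both strands in the whole windows of 300 bases, and a match is a description of the letters only. TGACG was found in Fos at positions -129 and -66 from the start site, in Junb at -106, in Fosb and in Atf3, and in 20.8% of all 32851 promoter windows. TGACATCA was found in Jun at -45 and in 3.62% of all windows, and Jun had no TGACG match. CCAAT was found in Jun at -65, in Junb at -36 and in Atf3, and in 37.4% of all windows. TATAAA was found in Fos at -33 and in Junb at the start site, and in 13.6% of all windows. The AP-1 site TGANTCA was in 0 of the 7 windows and in 7.81% of all windows, and the full element TGACGTCA, which contains TGACG on both strands, was in 0 of the 7 and in 1.79%. The Egr1 site GCGTGGGCG (0.612% of all windows) and the CArG box of serum response factor (1.63%) were likewise not in these 7 windows. Sequence further from the start site was not searched, so sites of these genes outside the windows would be missed.

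Levels of the 9 factors spanned a wide range. Junb was the most abundant, at 231 ± 15.6 FPKM in OEA8_Ctrl (SD, n = 3, as for all values with ± in FPKM). As a mean over the 9 libraries, it lay above 97.7% of the tested genes. Egr1 (134 ± 7.19), Jund (70.6 ± 5.58), Fosl2 (39.2 ± 3.53), Jun (35.1 ± 1.02), Fosl1 (29.7 ± 1.95) and Fos (17.2 ± 0.999) followed. Atf3 (2.73 ± 0.160) and Fosb (0.683 ± 0.0577) were low, and Fosb lay above only 3.86% of the tested genes by the same mean over the 9 libraries. Fosl2 and Jun overlapped in the control libraries, while the other neighbours in this order did not.

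**Figure D1:**
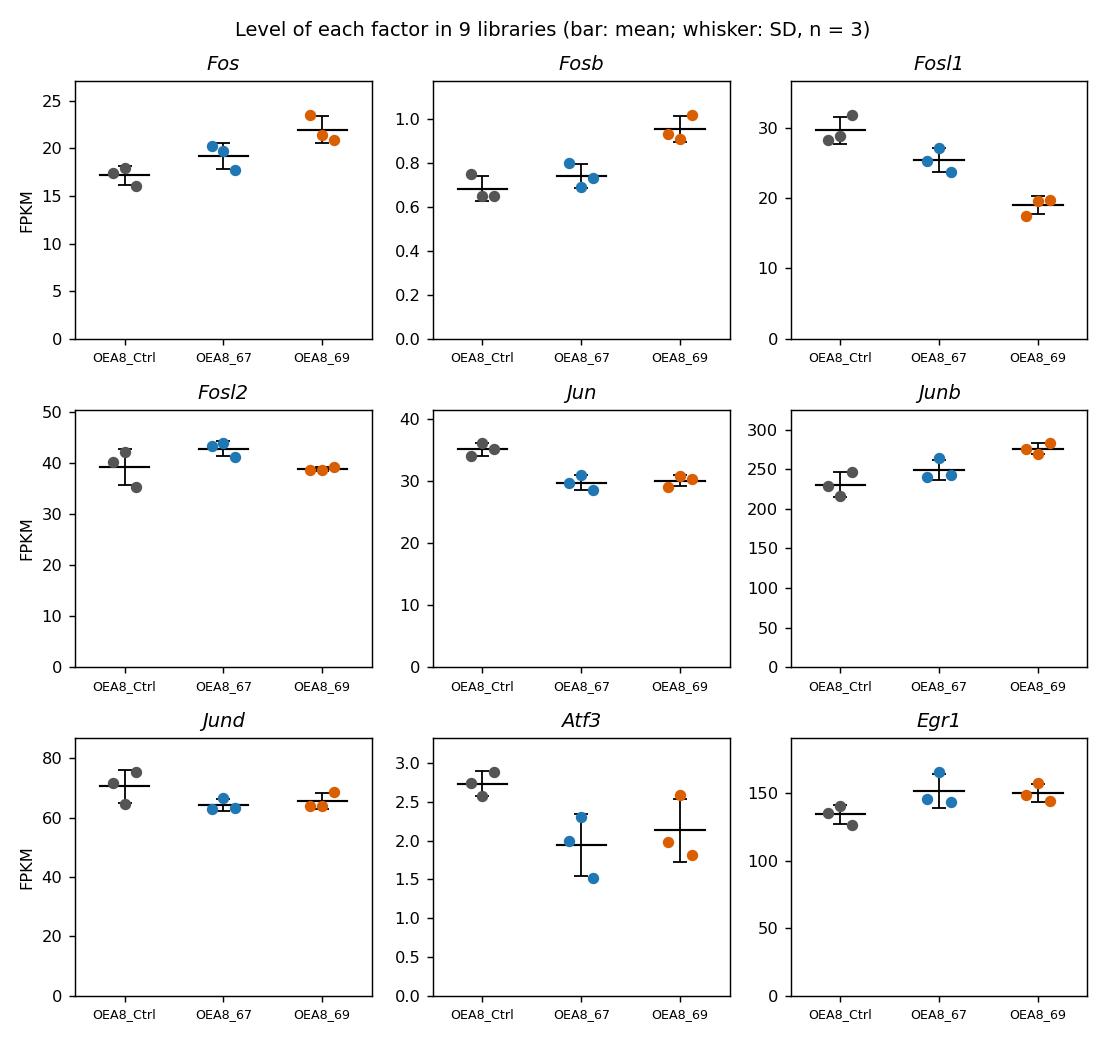
Level of each of the 9 factors in FPKM (vertical axes, starting at 0) in the 3 groups, with a point per library and the mean and SD (n = 3) as bar and whiskers. The OEA8_69 libraries lie below the other groups for Fosl1 (17.5 to 19.8 FPKM) and above them for Fos, Fosb and Junb, while both mutants lie below OEA8_Ctrl for Jun.

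Fosl1, the Fra-1 subunit that sustained MAPK signalling stabilizes in fibroblasts, gave the largest difference between OEA8_69 and OEA8_Ctrl among the 9 genes. It stood at 28.3, 28.9 and 31.9 FPKM in OEA8_Ctrl, at 25.2, 27.2 and 23.7 in OEA8_67 and at 17.5, 19.7 and 19.8 in OEA8_69. No 2 groups overlapped, with OEA8_Ctrl highest and OEA8_69 lowest. In OEA8_69 the mean was 0.640 of that in OEA8_Ctrl, a log2 fold change of -0.62 ± 0.07 (SE, log2(FPKM + 1) scale, adjusted p = 7.92e-05, limma with Benjamini-Hochberg adjustment over all tested genes). OEA8_69 was also lower than OEA8_67, by -0.40 ± 0.07 (adjusted p = 0.00771), whereas OEA8_67 against OEA8_Ctrl (-0.22 ± 0.07, adjusted p = 0.0657) did not pass 0.05. Both calls held in 18 of 18 alternative settings, at adjusted p of up to 0.000793 and 0.0469. Fosl1 lies at chr19:5447698-5455938 on the plus strand, and 1163 of its 1864 exonic bases (62.4%) are shared with Ccdc85b on the other strand. It is not given whether reads were assigned by strand, so reads of these genes may not be told apart. Ccdc85b did not pass the test (log2 fold change of -0.07 in OEA8_67 and 0.02 in OEA8_69 against OEA8_Ctrl, adjusted p = 0.498 and 0.875).

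Fos, the prototype partner of Jun, moved the other way. Its level was 17.5, 17.98 and 16.1 FPKM in OEA8_Ctrl, 20.3, 19.8 and 17.7 in OEA8_67 and 23.6, 21.4 and 20.9 in OEA8_69. All OEA8_69 libraries were above all others, while OEA8_67 overlapped OEA8_Ctrl. The rise in OEA8_69 was 1.28-fold (log2 fold change 0.34 ± 0.06, adjusted p = 0.00638, limma) and held in all 18 alternatives (adjusted p up to 0.0339). The differences of OEA8_67 from OEA8_Ctrl (0.15 ± 0.06, adjusted p = 0.168) and of OEA8_69 from OEA8_67 (0.18 ± 0.06, adjusted p = 0.154) did not pass. Fos lies at chr12:85473890-85477274 on the plus strand, with 4 exons in its longest transcript.

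Fosb, which like Fos encodes a strong activator, was near the filter in every group. It was at 0.75, 0.65 and 0.65 FPKM in OEA8_Ctrl, 0.80, 0.69 and 0.73 in OEA8_67 and 0.93, 0.91 and 1.02 in OEA8_69. The OEA8_69 libraries were again above all others, but the difference from OEA8_Ctrl (0.21 ± 0.07) did not pass (adjusted p = 0.0734). It passed with no filter on low levels (adjusted p = 0.0277) and with untrended moderation (adjusted p = 0.0204).

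Fosl2 was the most abundant Fos gene. It measured 40.2, 42.2 and 35.3 FPKM in OEA8_Ctrl, 43.5, 44.0 and 41.2 in OEA8_67 and 38.8, 38.7 and 39.3 in OEA8_69. Only the mutants were apart from each other, OEA8_67 above OEA8_69, and neither mutant passed against OEA8_Ctrl. The difference of OEA8_69 from OEA8_67 was -0.14 (95% interval -0.26 to -0.01, adjusted p = 0.231), and it passed without OEA8_Ctrl replicate 3 (adjusted p between 0.0464 and 0.440 over the 18 alternatives).

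Within the Fos family the proportions shifted. The summed level of the 4 genes was 86.7 ± 2.88 FPKM in OEA8_Ctrl, 88.2 ± 4.32 in OEA8_67 and 80.8 ± 0.189 in OEA8_69. The share of Fosl1 in that sum was 32.2% to 38.02% in OEA8_Ctrl, 28.1% to 29.7% in OEA8_67 and 21.7% to 24.4% in OEA8_69. The share of Fos was 19.1% to 20.2%, 21.2% to 22.6% and 25.8% to 29.2% in the same order. Neither share overlapped between any groups. The ratio of Fos to Fosl1 was below 1 in every library of OEA8_Ctrl (0.503 to 0.623) and OEA8_67 (0.727 to 0.802) and above 1 in every library of OEA8_69 (1.06 to 1.35). These shares follow from the levels above and carry no test of their own.

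**Figure D2:**
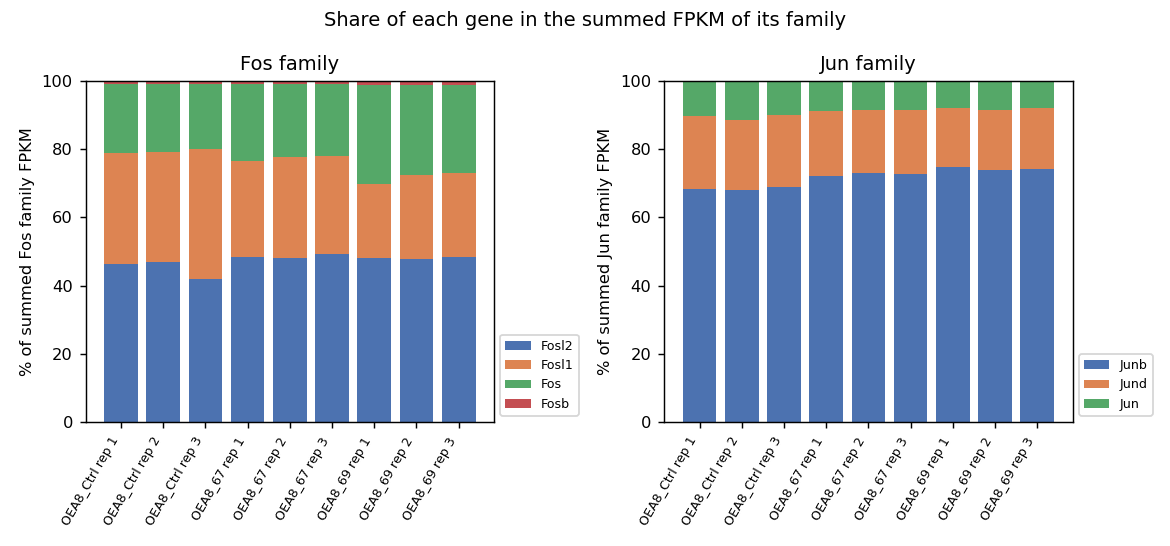
Share of each gene in the summed FPKM of the Fos family (left) and the Jun family (right), in percent, with a stacked bar per library. Fosl1 takes 32.2% to 38.02% of the Fos family in OEA8_Ctrl and 21.7% to 24.4% in OEA8_69, and Junb 68.2% to 69.1% of the Jun family in OEA8_Ctrl and 74.0% to 74.8% in OEA8_69.

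Jun, the main transactivating Jun protein in growing fibroblasts, was lower in both mutants. Its level was 34.1, 36.1 and 35.1 FPKM in OEA8_Ctrl, 29.6, 30.9 and 28.5 in OEA8_67 and 29.1, 30.8 and 30.4 in OEA8_69. Every mutant library was below every control library, and the mutants overlapped each other. Jun fell by 0.23 ± 0.04 on the log2 scale in OEA8_67 (adjusted p = 0.00820, limma) and by 0.22 ± 0.04 in OEA8_69 (adjusted p = 0.0101). The mutants differed by 0.02 (95% interval -0.08 to 0.12). The call in OEA8_67 held in 18 of 18 alternatives, and the call in OEA8_69 was lost without OEA8_69 replicate 1 (log2 fold change -0.19, adjusted p = 0.0543). Jun, a gene with a single exon, lies at chr4:95049036-95052222 on the minus strand.

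Junb, which in many settings restrains Jun, rose in OEA8_69. It was at 229, 216 and 247 FPKM in OEA8_Ctrl, 240.0, 264 and 243 in OEA8_67 and 276, 269 and 283 in OEA8_69. The OEA8_69 libraries lay above all 6 others, and OEA8_67 overlapped OEA8_Ctrl. The rise against OEA8_Ctrl was 1.197-fold (0.26 ± 0.06, adjusted p = 0.0113, limma), and it was lost without OEA8_69 replicate 3 (0.24, adjusted p = 0.0505). OEA8_67 against OEA8_Ctrl (0.11, adjusted p = 0.234) and OEA8_69 against OEA8_67 (0.15, adjusted p = 0.173) did not pass, although quantile normalization gave 0.19 for the former (adjusted p = 0.0335). Junb, likewise a gene with a single exon, lies at chr8:84976909-84978748 on the minus strand.

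Jund, the Jun gene that is least dependent on growth signals, was at 71.7, 64.6 and 75.6 FPKM in OEA8_Ctrl, 63.0, 66.6 and 63.3 in OEA8_67 and 64.0, 64.0 and 68.6 in OEA8_69. The groups overlapped, with OEA8_Ctrl replicate 2 inside the range of the mutants. The differences from OEA8_Ctrl were -0.13 in OEA8_67 (95% interval -0.25 to -0.01, adjusted p = 0.180) and -0.10 in OEA8_69 (-0.23 to 0.02, adjusted p = 0.280). Without OEA8_Ctrl replicate 2 the former passed, at -0.19 (adjusted p = 0.0361).

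The Jun family sum was 336 ± 20.6 FPKM in OEA8_Ctrl, 343 ± 16.1 in OEA8_67 and 371 ± 9.56 in OEA8_69. Junb took 68.2% to 69.1% of it in OEA8_Ctrl, 72.2% to 73.0% in OEA8_67 and 74.0% to 74.8% in OEA8_69, without overlap. The ratio of Junb to Jun was 5.98 to 7.04 in OEA8_Ctrl, 8.10 to 8.54 in OEA8_67 and 8.74 to 9.47 in OEA8_69. In both mutants, thus, more of the Jun family signal came from Junb than in any control library.

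Atf3, which can pair with Jun proteins and often represses, was at 2.74, 2.57 and 2.89 FPKM in OEA8_Ctrl, 1.99, 2.31 and 1.52 in OEA8_67 and 1.98, 2.59 and 1.82 in OEA8_69. All OEA8_67 libraries were below OEA8_Ctrl, and OEA8_69 replicate 2 reached the control range. The differences were -0.35 ± 0.11 in OEA8_67 (adjusted p = 0.0714) and -0.26 ± 0.11 in OEA8_69 (adjusted p = 0.162), and neither passed under any alternative run (lowest adjusted p of 0.0553 and 0.0741).

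Egr1, on chromosome 18, was at 135, 141 and 127 FPKM in OEA8_Ctrl, 146, 166 and 144 in OEA8_67 and 148, 157 and 145 in OEA8_69. Every mutant library was above every control library. The mean was 1.13-fold higher in OEA8_67 (0.17 ± 0.06, adjusted p = 0.111) and 1.12-fold higher in OEA8_69 (0.16 ± 0.06, adjusted p = 0.133), short of the threshold in both. The mutants differed by -0.01 (95% interval -0.15 to 0.12).

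Counted over the 9 factors, 1 was called in OEA8_67 against OEA8_Ctrl (Jun, lower), where 7.88% of all tested genes were called, 3.21% higher and 4.66% lower. In OEA8_69 against OEA8_Ctrl 4 were called, Fos and Junb higher and Fosl1 and Jun lower, where 9.79% of all genes were called, 4.55% higher and 5.24% lower. Between the mutants 1 was called (Fosl1, lower in OEA8_69), where 3.16% of all genes were called, 1.89% higher and 1.27% lower. The F test over the 3 groups called Fosl1 (adjusted p = 0.000233), Jun (0.00837), Fos (0.0153) and Junb (0.0249), 4 of 9 beside 12.1% of all genes, and the call of Fos was lost without OEA8_69 replicate 1 (0.0595). That of Junb was lost without OEA8_Ctrl replicate 1 (0.0676) or 2 (0.0514), without OEA8_69 replicate 1 (0.0772), 2 (0.0533) or 3 (0.0878), and with no filter on low levels (0.0567). An unadjusted p under 0.05 was found for 7, 7 and 5 of the 9 in the comparisons of OEA8_67 with OEA8_Ctrl, of OEA8_69 with OEA8_Ctrl and of the mutants. The share of all tested genes with such a p was not counted, so these numbers have no background to be read against. Libraries did not overlap for 4 of the 9 in OEA8_67 against OEA8_Ctrl (28.2% of all tested genes), for 6 of 9 in OEA8_69 against OEA8_Ctrl (27.5%) and for 5 of 9 between the mutants (31.6%). The median absolute log2 fold change of the 9 was 0.16, 0.22 and 0.14 in these comparisons, and that of all tested genes 0.08, 0.08 and 0.07. The comparisons with OEA8_Ctrl share the same 3 control libraries.

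**Figure D3:**
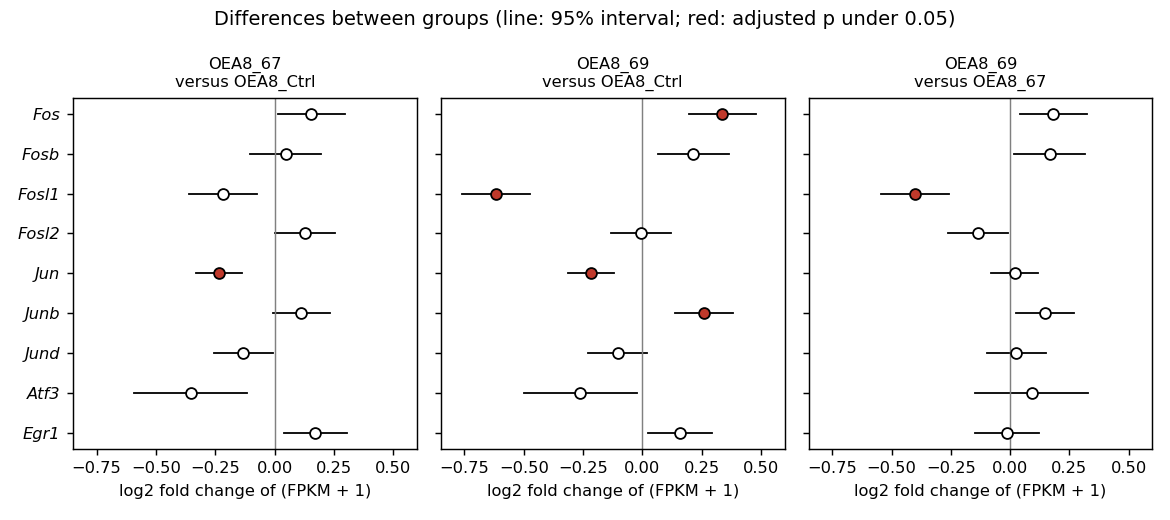
Log2 fold change of (FPKM + 1) of each factor in the 3 comparisons (horizontal axis), with a point for the estimate, a line for its 95% interval, and red for an adjusted p under 0.05 (limma). Red points are Jun in OEA8_67, Fos, Fosl1, Jun and Junb in OEA8_69, each against OEA8_Ctrl, and Fosl1 between the mutants.

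The other genes of the response were described from lists of pathway members. Among 18 other zipper factor genes tested, 0 were called higher and 1 lower in OEA8_67, where 7.88% of all tested genes were called. In OEA8_69 0 were called higher and 3 lower, where 9.79% of all tested genes were called. Over the 18 alternatives 0 to 2 and 1 to 5 were called, with up to 2 higher in OEA8_69. In OEA8_69 there were 5 calls without OEA8_Ctrl replicate 3 and 1 without OEA8_Ctrl replicate 1 or OEA8_69 replicate 2 or 3. In OEA8_67 this was Atf5, an ATF factor of the stress response (72.4 ± 3.83 FPKM in OEA8_Ctrl, 62.6 ± 2.96 in OEA8_67, log2 fold change -0.21, adjusted p = 0.0279). In OEA8_69 they were Atf6, a sensor of unfolded protein in the endoplasmic reticulum (11.2 ± 0.785 to 8.18 ± 0.334 FPKM, -0.41, adjusted p = 0.00102), and the small Maf genes Maff (-0.27, adjusted p = 0.0336) and Mafk (-0.21, adjusted p = 0.0293). Atf6 held in 18 of 18 alternatives, whereas Atf5, Maff and Mafk were lost in 6, 7 and 6 of 18. The losses included leaving out OEA8_Ctrl replicate 3 or OEA8_67 replicate 2 or 3 for Atf5, OEA8_Ctrl replicate 1 or 3, OEA8_67 replicate 2 or OEA8_69 replicate 2 or 3 for Maff, and OEA8_Ctrl replicate 1 or 2 or each OEA8_69 library in turn for Mafk.

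Of 33 other immediate early genes tested, 1 was called higher and 3 lower in OEA8_67, and 7 higher and 5 lower in OEA8_69, beside 7.88% and 9.79% of all tested genes. Over the 18 alternatives 2 to 5 were called in OEA8_67 (0 to 3 of them higher) and 8 to 12 in OEA8_69 (4 to 8 higher), the count of 2 in OEA8_67 arising without OEA8_Ctrl replicate 1 or 2 or OEA8_67 replicate 1 or 2. Hbegf, an EGF receptor ligand, was lowered most. It stood at 19.3, 19.3 and 19.0 FPKM in OEA8_Ctrl, 12.1, 12.5 and 12.4 in OEA8_67 and 9.34, 9.81 and 9.37 in OEA8_69. The 3 groups were fully separated, and all 3 differences were called (log2 fold changes of -0.60, -0.94 and, between the mutants, -0.34, adjusted p = 4.83e-06, 5.69e-08 and 0.00202). Ccn2, a matrix-associated growth factor, fell in OEA8_69, from 149 ± 2.94 to 123 ± 1.35 FPKM (-0.27, adjusted p = 0.000801), and was also lower there than in OEA8_67 (-0.27, adjusted p = 0.00395). Tiparp, an ADP-ribosyltransferase induced by the aryl hydrocarbon receptor, fell in OEA8_67 (-0.26, adjusted p = 0.0207) and OEA8_69 (-0.41, adjusted p = 0.000967).

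Egr2, a close relative of Egr1, rose in OEA8_69. It was at 4.17, 3.80 and 3.49 FPKM in OEA8_Ctrl, 4.88, 5.89 and 4.31 in OEA8_67 and 5.70, 6.60 and 5.54 in OEA8_69, so that both mutants lay above the control and overlapped each other (OEA8_69 against OEA8_Ctrl 0.53 ± 0.10, adjusted p = 0.00478). Klf4, a zinc finger factor, rose in OEA8_67 (0.26, adjusted p = 0.0133), where its relative Klf2 fell (-0.20, adjusted p = 0.0288). Also called in OEA8_69, and named after their values were seen, were Egr3 (0.37, adjusted p = 0.00756) and the orphan nuclear receptor Nr4a1 (0.35, adjusted p = 0.00638), both higher as were Klf4, Ier2, Ccn1 and Zfp36l1, while Csrnp1 and Plk3 were lower. Of the latter, Klf4 was lost without OEA8_69 replicate 3, Plk3 without OEA8_69 replicate 2 and Ccn1 without OEA8_69 replicate 1 or 2. Zfp36l1 was lost without OEA8_Ctrl replicate 2 or OEA8_69 replicate 1 or 3. Ier2 was lost in 11 of 18 alternatives and Csrnp1 in 9 of 17, both including single libraries of each of the 3 groups left out. Both were also lost with no filter on low levels, a block for the replicate number and only the 2 compared groups. Ier2 was further lost with median-of-ratios scaling and untrended moderation. The calls of Hbegf, Ccn2, Egr3 and Nr4a1 held in 18 of 18 alternatives and that of Egr2 in 17 of 17. In OEA8_67 the call of Klf4 was lost without OEA8_67 replicate 2 or 3. That of Klf2 was lost without each OEA8_Ctrl library in turn or OEA8_67 replicate 1 or 3, and with only the 2 compared groups. That of Tiparp was lost without OEA8_Ctrl replicate 1 or 2 or OEA8_67 replicate 1 or 2. The median over the list was 0.03 in OEA8_67 and 0.01 in OEA8_69, beside 0.02 and 0.02 for all tested genes.

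Of 13 MAPK feedback inhibitors tested, 1 was higher and 2 were lower in each mutant, beside 7.88% and 9.79% of all tested genes called, and 2 to 4 were called in each over the 18 alternatives. Dusp1, a nuclear phosphatase for p38 and JNK and itself an immediate early gene, was at 35.9, 30.0 and 36.9 FPKM in OEA8_Ctrl, 23.0, 24.0 and 23.1 in OEA8_67 and 25.4, 22.2 and 24.0 in OEA8_69. All mutant libraries were below the control (-0.53 in OEA8_67, adjusted p = 0.000932, and -0.50 in OEA8_69, adjusted p = 0.000970). Spry4, an inhibitor of receptor tyrosine kinase signalling, was also lower in both (-0.35 and -0.42, adjusted p = 0.00663 and 0.00149). Dusp6, a cytoplasmic phosphatase for ERK and a gene that ERK induces, was higher in both (0.22 and 0.31, adjusted p = 0.0229 and 0.00237). Its call in OEA8_67 was lost without each of the OEA8_67 libraries in turn (adjusted p of 0.0521, 0.0794 and 0.0857, limma). The same call was lost with only the 2 compared groups in the model.

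Upstream of AP-1, 1 of 21 kinases was called in OEA8_67 and 3 in OEA8_69, all lower, beside 7.88% and 9.79% of all tested genes. Over the 18 alternatives 0 to 1 and 1 to 5 were called, with 5 (1 higher) in OEA8_69 without OEA8_Ctrl replicate 3 and 1 without OEA8_69 replicate 2. Mapk12, the p38 gamma kinase, was at 6.12, 6.59 and 7.80 FPKM in OEA8_Ctrl, 2.89, 3.42 and 2.33 in OEA8_67 and 2.86, 2.53 and 2.64 in OEA8_69. The mutants were well below the control and overlapped each other (-1.02 and -1.09, adjusted p = 8.22e-05 and 3.13e-05). In OEA8_69 Mapk11, the p38 beta kinase (-0.36, adjusted p = 0.0135), and Map2k1, the ERK kinase MEK1 (-0.22, adjusted p = 0.0234), were also called. Mapk11 was lost without OEA8_69 replicate 2, and Map2k1 without OEA8_Ctrl replicate 2 or OEA8_69 replicate 1 or 2. Map2k1 was also lost with a block for the replicate number. A further list held serum response factor, its cofactors and some ETS factors. Of its 11 genes 2 were called, both higher, in OEA8_67 and 0 in OEA8_69 (1 to 3 and 0 to 1 over the alternatives). Of all tested genes 3.21% were called higher in OEA8_67 and 4.55% in OEA8_69. The 2 genes were Etv1 (0.33, adjusted p = 0.00902, limma) and Etv5 (0.22, adjusted p = 0.0185). Both are ETS factors of the PEA3 group that are neither serum response factor nor its ternary complex partners. Etv5 was lost without OEA8_Ctrl replicate 1 or each OEA8_67 library in turn. Erg, an ETS factor outside this list, was among the endothelial markers that were lower in both mutants. Its means were 42.8 FPKM in OEA8_Ctrl, 6.35 in OEA8_67 and 3.51 in OEA8_69. Between the mutants Ets1, another ETS factor, was lower in OEA8_69 (-0.24, adjusted p = 0.0317, limma), a call lost without each library of either mutant in turn. The Ets1 call was also lost with no filter on low levels and with a block for the replicate number.

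Of 30 tested genes that AP-1 is known to regulate, 13 were lower and 1 higher in OEA8_67, where 4.66% of all tested genes were lower, and 18 were lower and 1 higher in OEA8_69, where 5.24% were lower. Their median log2 fold change was -0.16 in OEA8_67 and -0.33 in OEA8_69, beside 0.02 for all genes in each. Between the mutants 8 were lower and 1 higher in OEA8_69, where 1.27% of all genes were lower. Over the 18 alternatives the numbers lower ranged from 11 to 14, from 17 to 20 and from 6 to 13. Many of these genes are also regulated by other factors, and the list was chosen with earlier results of these data known.

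Tnc, the matrix glycoprotein tenascin-C, fell most against OEA8_Ctrl. It was at 140.3, 136 and 119 FPKM in OEA8_Ctrl, 56.9, 61.2 and 57.9 in OEA8_67 and 42.1, 41.1 and 44.5 in OEA8_69, with no overlap between any groups. The log2 fold changes were -1.15 and -1.60 against OEA8_Ctrl and -0.45 between the mutants (adjusted p = 2.40e-07, 8.76e-09 and 0.00227). Mmp3, the protease stromelysin-1, was at 162, 155 and 168 FPKM in OEA8_Ctrl, 131, 126 and 132 in OEA8_67 and 80.3, 82.3 and 76.0 in OEA8_69. The groups were again fully separated (-0.31, -1.01 and -0.70, adjusted p = 0.00136, 4.14e-08 and 2.33e-05). Mmp13, an interstitial collagenase known for an AP-1 site in its promoter, fell from 13.7 ± 0.746 FPKM to 9.63 ± 0.697 and 6.59 ± 0.385.

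Ccnd1, cyclin D1 of the G1 phase, fell from between 148 and 154 FPKM in OEA8_Ctrl to between 125 and 129 in OEA8_67 and between 102 and 106 in OEA8_69. It was also lower in OEA8_69 than in OEA8_67 (-0.29, adjusted p = 0.00197). Mmp9, a gelatinase (25.5 ± 1.196 to 15.7 ± 1.26 and 14.3 ± 0.397 FPKM), Plaur, the urokinase receptor (16.1 ± 0.547 to 10.9 ± 0.707 and 9.50 ± 0.128), and Spp1, osteopontin (1034 ± 6.44 to 794 ± 31.4 and 737 ± 13.5), were lower in both mutants. Every call named for these 7 genes held in 18 of 18 alternatives. The genes called higher were Ezr, which links membrane and actin, in OEA8_67 (0.32, adjusted p = 0.00315), the collagen crosslinker Lox in OEA8_69 (0.22, adjusted p = 0.0237) and the gelatinase Mmp2 between the mutants (0.23, adjusted p = 0.0194). Lox was lost without each OEA8_69 library in turn and with only the 2 compared groups in the model. Mmp2 was lost without OEA8_67 replicate 2 or 3 or each OEA8_69 library in turn.

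Promoter windows were available for 22 of the target genes. The AP-1 site TGANTCA was in 8 of the 27 windows of these genes (29.6%), each of a different gene, beside 7.81% of all windows. Of the 7 such genes that could be tested, 3 were lower and 1 higher in OEA8_67 and 4 lower in OEA8_69. Of the 14 target genes without these letters in the window, 5 and 9 were lower. Of all tested genes 4.66% were lower in OEA8_67 and 5.24% in OEA8_69. Of 12 heat shock genes 0 were called in OEA8_67 and 3, all lower, in OEA8_69, beside 7.88% and 9.79% of all tested genes. Over the alternatives 0 to 1 and 1 to 4 were called. Hsp90aa1, a cytosolic chaperone, was at 213 ± 4.87 FPKM in OEA8_Ctrl, 216 ± 9.01 in OEA8_67 and 180.5 ± 4.23 in OEA8_69 (-0.24 in OEA8_69 against OEA8_Ctrl, adjusted p = 0.00413, limma).

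**Figure D4:**
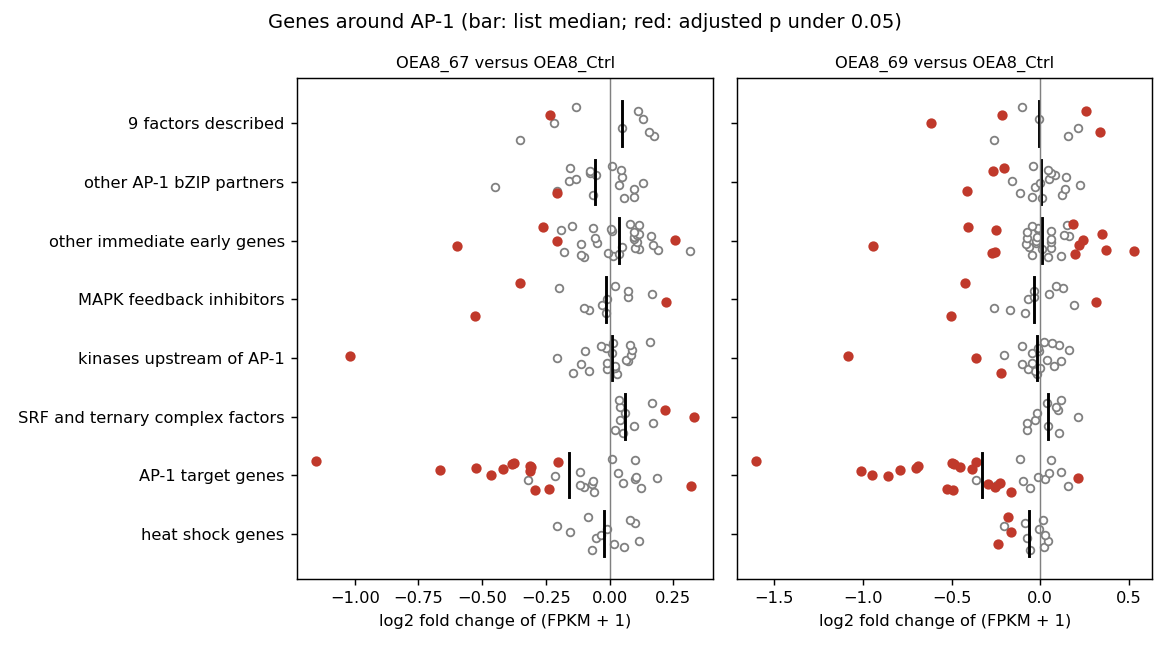
Log2 fold change of (FPKM + 1) against OEA8_Ctrl (horizontal axis) for the 9 factors and 7 lists around them, with a circle per tested gene, a bar at the list's median and red for an adjusted p under 0.05. The median of the AP-1 target genes is at -0.16 in OEA8_67 and -0.33 in OEA8_69, whereas every other list shown has its median within 0.07 of 0.

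Across the 9 libraries, the tested genes whose log2 levels followed that of Fosl1, the factor with the smallest F test p, most closely included Pfkl (r = 0.994), Niban2 (r = 0.963) and Ccnd1 (r = 0.958), 3 of the 5 with the highest r. Pfkl encodes the liver type of the glycolytic enzyme phosphofructokinase. They were picked for this likeness, and the 9 points share 3 groups, so r is given as a description only. Ccnd1 also belongs to the target list. Pfkl ranged from 52.8 to 55.8 FPKM in OEA8_Ctrl, from 50.5 to 52.8 in OEA8_67 and from 45.7 to 47.0 in OEA8_69, a narrower range than that of Fosl1.

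**Figure D5:**
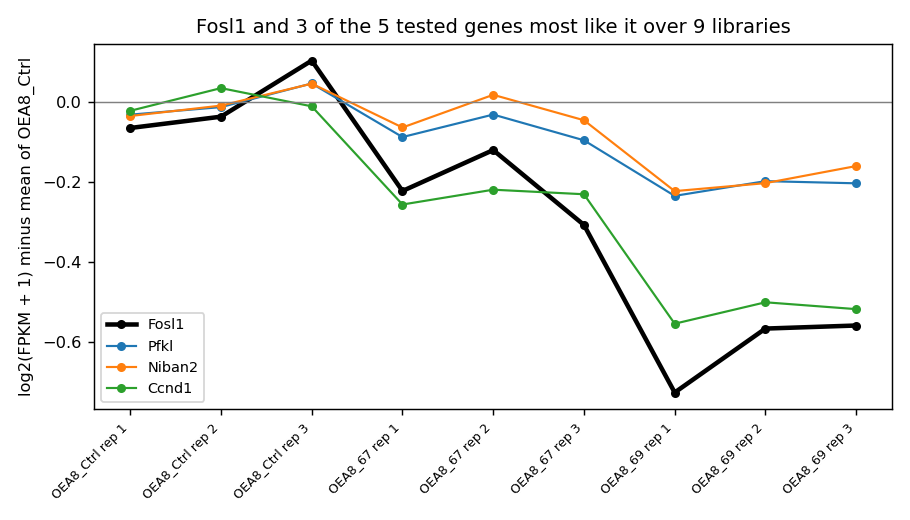
Log2(FPKM + 1) of Fosl1 (thick line) and of 3 of the 5 genes most like it, as the difference from each gene's OEA8_Ctrl mean (vertical axis), in the 9 libraries (horizontal axis, lines only join the points of a gene). All 4 genes are lowest in the OEA8_69 libraries, with r to Fosl1 between 0.958 and 0.994.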

How the data were processed

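TRIzol-extracted total RNA was sequenced by DNBSEQ on a BGISEQ-500, and the authors removed reads of low quality. Alignment tools in the submitters' processing notes are Bowtie2 2.2.5 and HISAT2 2.0.4, with the mm10 build, and the study names RSEM, without a version. The deposited values are FPKM per gene and library. As FPKM is relative to the mapped fragments of a library, a rise of abundant genes lowers all others. Whole reads could not be recovered, so no count model was applied. Columns of the authors' group means were used only to check the table.

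Groups and replicate numbers came from the sample titles. Values were transformed to log2(FPKM + 1), which understates changes of low genes, and genes averaging 0.5 FPKM or more were tested in a single limma 3.58.1 model (R 4.3.3) of all 9 libraries, with trended empirical Bayes moderation. P-values were adjusted by Benjamini-Hochberg over the 12012 genes, and an adjusted p under 0.05 was a call. The study names no test for this table. The procedure was tested on simulated data. The 9 genes and all lists were chosen with earlier results of these data known. From each list up to 4 called genes with the smallest adjusted p were named in each comparison, and the values of 2 genes that the naming rules pick are not reported here. Alternatives were pseudocounts of 0.1 and 0.5, no filter or a mean of 5 FPKM, median-of-ratios and quantile scaling, untrended moderation, only the 2 compared groups, a block for the replicate number and leaving out each library. For the lists, these were added after seeing the data. Positions and promoters came from RefSeq GRCm38.p6 (19179 gene identifiers matched), exons from GENCODE M21, handled in Python 3.11.15.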

Additional observations from a re-analysis of the deposited data

Results flagged for a closer look

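Fosl1 stood apart between the mutants. Its difference from OEA8_Ctrl was -0.22 on the log2 scale in OEA8_67 and -0.62 in OEA8_69, and the difference between these, which is OEA8_69 against OEA8_67, was -0.40 (adjusted p = 0.00771, limma, lower in 3 of 3 OEA8_69 libraries than in every OEA8_67 library). It was the only one of the 9 factors for which the mutants differed by the test.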

How the results depend on the processing

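Of 480 recomputed log2 fold changes of the 9 factors, 462 kept their direction and their side of the threshold, 8 were called under the alternative only, 2 were no longer called and 8 changed sign. Fosl1 and Fos in OEA8_69, Jun in OEA8_67 and Fosl1 between the mutants stayed called in all 18 alternatives. The count of factors called in OEA8_67 against OEA8_Ctrl rose from 1 to 2 with quantile normalization (Junb) and was 1 to 2 when single libraries were left out. Between the mutants it rose from 1 to 2 with only the compared groups in the model (Fosl2) and was 1 to 2 without single libraries. The F test called 2 to 4 and OEA8_69 against OEA8_Ctrl 3 to 4 without single libraries. Over all genes, 946 calls in OEA8_67 against OEA8_Ctrl became 607 with only the compared groups and 456 to 1048 without single libraries. The 379 calls between the mutants became 210 with no filter, 976 with only the compared groups and 123 to 1034 without single libraries. The 1176 calls in OEA8_69 against OEA8_Ctrl became 745 to 1794 without single libraries. Without OEA8_Ctrl replicate 3 the calls between the mutants were 1034. The cause was not tested. Sign changes concerned differences near 0 that were not called and arose only without single libraries: between the mutants Atf3 (-0.015 and -0.011, range to 0.182), Egr1 (0.054 and 0.014, range from -0.051), Jun (-0.009, range to 0.048) and Jund (-0.006, range to 0.052), and in OEA8_69 against OEA8_Ctrl Fosl2 (0.012 and 0.046, range from -0.079).

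Over all genes, deviations of same-numbered libraries from their group means correlated between -0.248 and 0.149, over 0.1 in 1 of 9 pairs. Not every library correlated best with its own number. With 3 libraries a group, these correlations cannot settle whether the replicate numbers pair the libraries. Egr1 was highest in replicate 2 and lowest in replicate 3 of every group. With the replicate number as a block, 2 factors were called in OEA8_67 against OEA8_Ctrl (Jun and Egr1, the latter at adjusted p = 0.0444), Egr1 was also called in OEA8_69 (adjusted p = 0.0495), and 242 genes were called between the mutants. Median-of-ratios or quantile scaling moved the median of all genes by less than 0.1 on the log2 scale. Atf3 and Fosb gave no value with the filter at 5 FPKM, nor did the F test with only 2 groups. The unknown depth limits low genes such as Fosb and Atf3 most.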
